A study of Mus musculus with 2 samples.

Results

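The mouse beta-globin cluster on chromosome 7 holds 5 protein-coding globin genes, and 9 CTCF binding sites were found around it in embryonic liver. The sites were chosen by position alone from the optimal list. That list holds peaks kept by the irreproducible discovery rate (IDR), a measure of how well peak ranks recur between compared lists. Not every optimal peak had a summit within 100 bp in both replicate lists. A peak was taken where its summit lay between the outer ends of Hbb-bt and Hbb-y or within 100 kb on either side. The sites are 9 of the 50909 optimal peaks. The window runs over chr7:103712524-103953216 on build mm10, a length of 240.693 kb, and the genes themselves span 40.693 kb of it. The assay was ChIP-seq, in which DNA bound by CTCF was immunoprecipitated and sequenced, on mouse embryo livers of strain B6NCrl taken at day 14.5 of gestation. The livers came from several dissections, were pulverised and were pooled, males with females. The 2 libraries form 1 group with no treatment and no reference group, and both come from 1 biosample. The labels number them as biological replicates. Because they share that biosample, their spread was taken to cover only the steps after it, among them library making and sequencing. Variation between animals was not measured. With 1 group no comparison between conditions was possible. CTCF peaks do not show which cells the liver held, and its label was not checked against marker genes. In pooled tissue, a site bound in more cells and a site bound more strongly per cell cannot be told apart.

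CTCF is a zinc finger protein that binds a directional DNA motif at insulators and at the anchors of chromatin loops, where the motifs at the ends of a loop mostly point toward each other. The beta-globin genes are switched during development. Hbb-y and Hbb-bh1 are the embryonic beta-like genes used in primitive red cells, and Hbb-bs and Hbb-bt are the adult genes that definitive red cells use, which in the mouse embryo arise in the fetal liver. Their distal enhancers form the locus control region (LCR) upstream of Hbb-y, a row of DNase I hypersensitive sites named 5'HS1 onwards, and olfactory receptor genes lie on both sides of the cluster.

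All 5 genes run on the minus strand, so that the LCR lies at higher coordinates. Of the 9 sites, 7 lay upstream of Hbb-y, 2 lay beyond the 3' end of Hbb-bt, and 0 lay between the outer ends of the genes. The sites are numbered here from low to high coordinate, and distances are given from the start of Hbb-y, negative on the side of the genes. Against the hypersensitive sites in the RefSeq functional annotation, whose positions that annotation gives as approximate, 7 of the 9 summits fell inside a named element. Site 1 lay in 3'HS1, site 3 in 5'HS2, site 4 in 5'HS3, site 5 in 5'HS4.2, site 6 in 5'HS5, site 8 in HS-62.5 and site 9 in HS-85.5. Site 2, between Hbb-bt and 3'HS1, and site 7, near the start of the olfactory receptor gene Olfr64, fell in no annotated element.

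**Figure D1:**
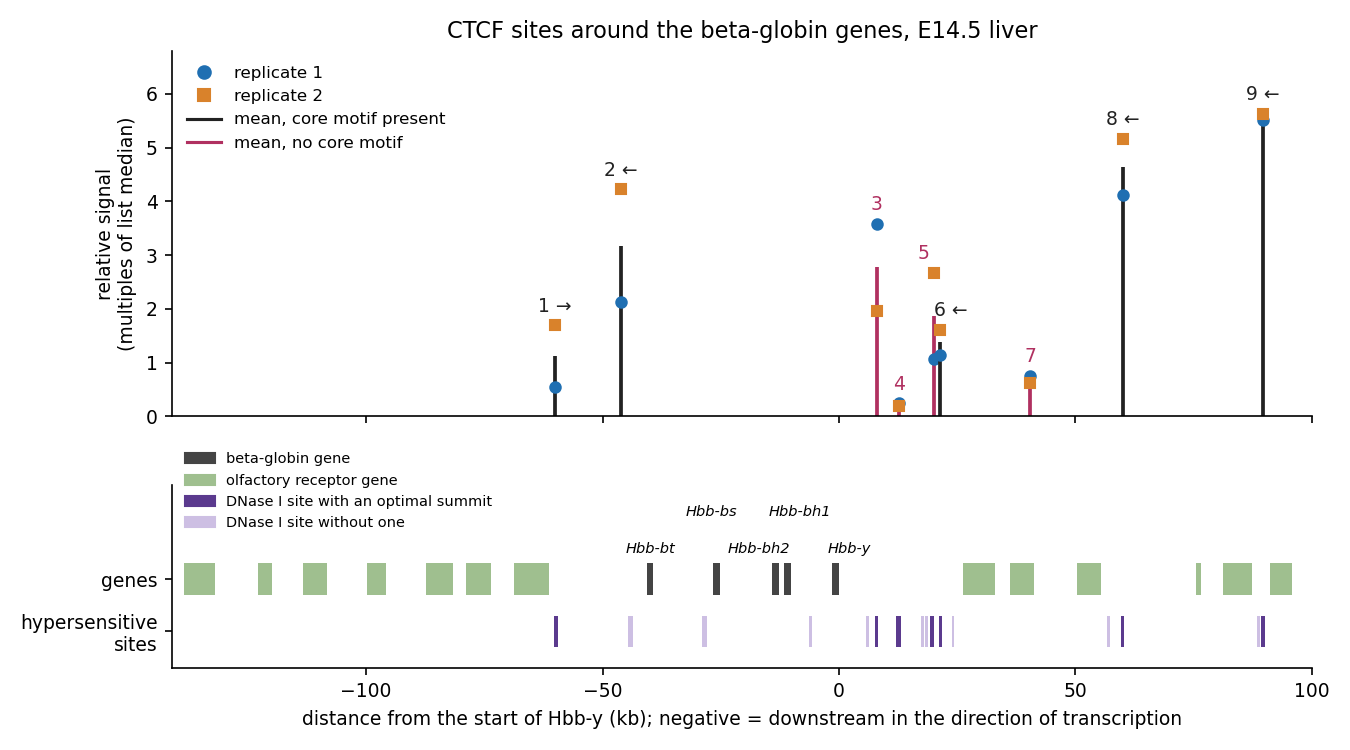
Relative CTCF signal of the 9 sites against distance from the start of Hbb-y in kb (top), with genes and annotated hypersensitive sites (bottom). Points are the 2 replicates, lines their mean, arrows the strand of the core motif (right for plus); the 9 sites flank the genes on both sides, and the longest gap, 54.083 kb from site 2 to site 3, holds all 5 genes.

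A core CTCF motif, searched as 14 positions on both strands with at most 2 mismatches and wholly within 50 bp of the summit, was found at 5 of the 9 sites. Each position counted alike, so a site said to hold no motif is one past this limit. Among all placed optimal peaks 70.8% held it. The 5 matches are shown with 20 bases on each side, read on the strand of the motif and with the motif in capitals, because the arrangement of the sites is described by the direction of these motifs:
Site 1 in 3'HS1, plus strand, chr7:103793074-103793127: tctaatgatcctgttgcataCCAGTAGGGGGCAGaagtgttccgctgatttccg
Site 2, minus strand, chr7:103807052-103807105: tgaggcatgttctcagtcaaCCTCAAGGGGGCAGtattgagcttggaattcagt
Site 6 in 5'HS5, minus strand, chr7:103874622-103874675: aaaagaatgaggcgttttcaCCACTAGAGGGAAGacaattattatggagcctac
Site 8 in HS-62.5, minus strand, chr7:103913158-103913211: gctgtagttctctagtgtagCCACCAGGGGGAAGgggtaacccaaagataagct
Site 9 in HS-85.5, minus strand, chr7:103942921-103942974: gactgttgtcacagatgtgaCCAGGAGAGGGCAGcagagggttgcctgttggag

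The match at site 1 had 0 mismatches, those at sites 6, 8 and 9 had 1 each, and that at site 2 had 2. Any pair of the 5 shared 10 to 12 of the 14 motif bases but 7 to 13 of the 40 flanking bases. The motif of site 1 lay on the plus strand and pointed toward the genes. Those of sites 2, 6, 8 and 9 lay on the minus strand. The motif at 3'HS1 therefore faced those at 5'HS5, HS-62.5 and HS-85.5 across the genes, at 81.552 kb from 5'HS5 and 149.86 kb from HS-85.5. Site 2, which lies 67.553 kb from 5'HS5 on the same side of the genes as 3'HS1, had its motif on the same strand as the upstream sites and faced 3'HS1 at 13.999 kb.

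The annotation lists 4 CTCF-binding sites in the window, at 3'HS1, 5'HS5, HS-62.5 and HS-85.5, and an optimal peak overlapped all 4. The core motif lay inside the annotated site in each of the 4. The summits fell -20.5 bp from the centre of the annotated site at 3'HS1, -21.5 bp at 5'HS5, 4.5 bp at HS-62.5 and -8.5 bp at HS-85.5. Site 2 is the fifth site with a motif and has no annotated CTCF-binding site.

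Signal is given below in 2 ways. The optimal signal is the authors' value for a peak in the optimal list, where the median was 67.9. The relative signal is a replicate's value at the site divided by the median of that replicate's 50909 strongest peaks, which was 32.6 in replicate 1 and 34.2 in replicate 2. Its mean and SD are over the 2 replicates. By optimal signal, 7 of the 9 sites were above the median, against the 50% that the median sets for all optimal peaks.

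On the 3' side, site 1 in 3'HS1 (chr7:103793081, 60.135 kb from the start of Hbb-y) was a moderate peak. 3'HS1 marks the downstream border of the cluster. Its optimal signal was 78.0, above 54.3% of optimal peaks, and its relative signal was 0.546 in replicate 1 and 1.69 in replicate 2, with a mean of 1.12 ± 0.811 (SD, n = 2). The replicates thus placed it on opposite sides of the list median. The nearest annotated start was that of the olfactory receptor gene Olfr67, 1260 bp away.

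Site 2 (chr7:103807080) was the strongest of the sites on the 3' side, and the nearest optimal site to the adult gene Hbb-bt. It lay 5444 bp beyond the annotated end of that gene and 1571 bp from HS-3'beta2, an annotated hypersensitive site. Its optimal signal of 218 was above 82.4% of optimal peaks. The relative signal was 2.12 in replicate 1 and 4.22 in replicate 2, a mean of 3.17 ± 1.49, so both replicates put it at more than the list median. Its summit fell on the same base in both replicate lists. Of the 101 bases around the summit, 21.8% were soft-masked as repeats in the reference.

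Within the LCR, annotated over 19.656 kb, 4 sites were found, at 5'HS2, 5'HS3, 5'HS4.2 and 5'HS5, and only 5'HS5 held a core motif. 5'HS2 and 5'HS3 are enhancers bound by erythroid factors such as GATA-1 and NF-E2. Site 3 in 5'HS2 (chr7:103861163), 7.947 kb upstream of Hbb-y, had the highest optimal and mean relative signal of the 4, although site 5 in 5'HS4.2 exceeded it in replicate 2. Its optimal signal was 184, above 78.0% of optimal peaks, and its relative signal was 3.59 in replicate 1 and 1.97 in replicate 2, a mean of 2.78 ± 1.14. The best match to the core motif near its summit had 4 mismatches. The GC content of the 101 bases at its summit was 60.4%, against 40.6% to 51.5% at the other 8 sites. The sequence of the element from the annotated GATA-1 site past the summit is given on the plus strand, with the GATA-1 site and the tandem NF-E2 site in capitals, because the peak, which holds no core CTCF motif near its summit, covers the NF-E2 site:
5'HS2, plus strand, chr7:103861020-103861183: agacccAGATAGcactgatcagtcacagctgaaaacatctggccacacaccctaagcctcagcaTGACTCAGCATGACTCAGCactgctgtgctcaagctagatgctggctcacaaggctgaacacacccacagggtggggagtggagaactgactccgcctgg

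The summit of site 3 lay 61 bp past the tandem NF-E2 site and 132 bp past the GATA-1 site. The summits in the replicate lists were -1 bp and 8 bp from it, on the same side of those sites. The peak interval covered the tandem NF-E2 site in the optimal list and in both replicate lists.

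Site 4 in 5'HS3 (chr7:103865988) was the weakest. Its optimal signal of 16.3 was above only 4.22% of optimal peaks. The relative signal was 0.242 in replicate 1 and 0.197 in replicate 2, a mean of 0.220 ± 0.0322, below the list median in both. It was the only one of the 9 absent from the conservative list and from the strongest 50909 peaks of both replicates. The summits in the replicate lists lay 19 bp and -38 bp from the optimal summit.

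Sites 5 and 6, at 5'HS4.2 and 5'HS5, lay 1379 bp apart, the closest neighbours among the 9. Of all spacings between neighbouring optimal summits in the genome, 8.85% were as short. 5'HS5 is a CTCF site near the upstream end of the LCR. Site 5 (chr7:103873254) had an optimal signal of 125 and a relative signal of 1.06 in replicate 1 and 2.67 in replicate 2, a mean of 1.86 ± 1.14. Site 6 (chr7:103874633) had an optimal signal of 90.5 and a relative signal of 1.14 in replicate 1 and 1.61 in replicate 2, a mean of 1.37 ± 0.332. The order of the neighbours was turned round between the replicates, site 5 being lower than site 6 in replicate 1 and higher in replicate 2, and their means differed by less than the SD of site 5.

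The stretch at site 5 that came closest to the core motif is shown on the minus strand, in capitals, because the site did not differ from its motif-bearing neighbour beyond the replicate spread and this stretch departs from the motif at 4 positions:
Site 5 in 5'HS4.2, minus strand, chr7:103873243-103873296: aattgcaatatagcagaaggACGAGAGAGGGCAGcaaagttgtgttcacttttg

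Upstream of the LCR, site 7 (chr7:103893708) lay 777 bp downstream of the annotated start of Olfr64. Its optimal signal was 47.3, above 38.5% of optimal peaks, and its relative signal was 0.754 in replicate 1 and 0.616 in replicate 2, a mean of 0.685 ± 0.0973. It held no core motif within the limit of 2 mismatches, its best match having 4. As at site 5, these lay toward the start of the motif, and the later positions matched. It was the only site within 1 kb of an annotated start.

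The strongest 2 sites of the window were the farthest upstream. Site 8 in HS-62.5 (chr7:103913191), 59.975 kb from the start of Hbb-y, had an optimal signal of 306, above 90.7% of optimal peaks. Its relative signal was 4.11 in replicate 1 and 5.17 in replicate 2, a mean of 4.64 ± 0.748. HS-62.5 and HS-85.5 are hypersensitive sites among the olfactory receptor genes, far upstream of the LCR. Site 9 in HS-85.5 (chr7:103942941), 89.725 kb from the start of Hbb-y, had an optimal signal of 373 and rank 2568 of the 50909 optimal peaks. The relative signal was 5.50 in replicate 1 and 5.63 in replicate 2, a mean of 5.57 ± 0.0887.

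By mean relative signal the sites ran from 9 through 8, 2, 3, 5, 6, 1 and 7 down to 4. Both replicates placed sites 9 and 8 first and sites 7 and 4 among the lowest 3. Between them the order depended on the replicate. Site 3 was above sites 2 and 5 in replicate 1 and below both in replicate 2, and site 6 was above sites 5 and 1 in replicate 1 and below both in replicate 2. Site 1 was below site 7 in replicate 1 and above it in replicate 2. Neighbours in the order of means, from site 8 down to site 7, differed by less than the larger SD of each pair. The differences of site 9 over site 8 and of site 7 over site 4 were larger than either SD. For sites 9 and 8 this depended on the scaling. Divided by the mean signal in place of the median, site 9 was at 3.17 ± 0.444 and site 8 at 2.66 ± 0.754. Their difference was then smaller than the SD of site 8. Within each replicate site 9 was above site 8, at 5.50 against 4.11 in replicate 1 and 5.63 against 5.17 in replicate 2. That order does not depend on the divisor, which is the same for all sites of a replicate.

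**Figure D2:**
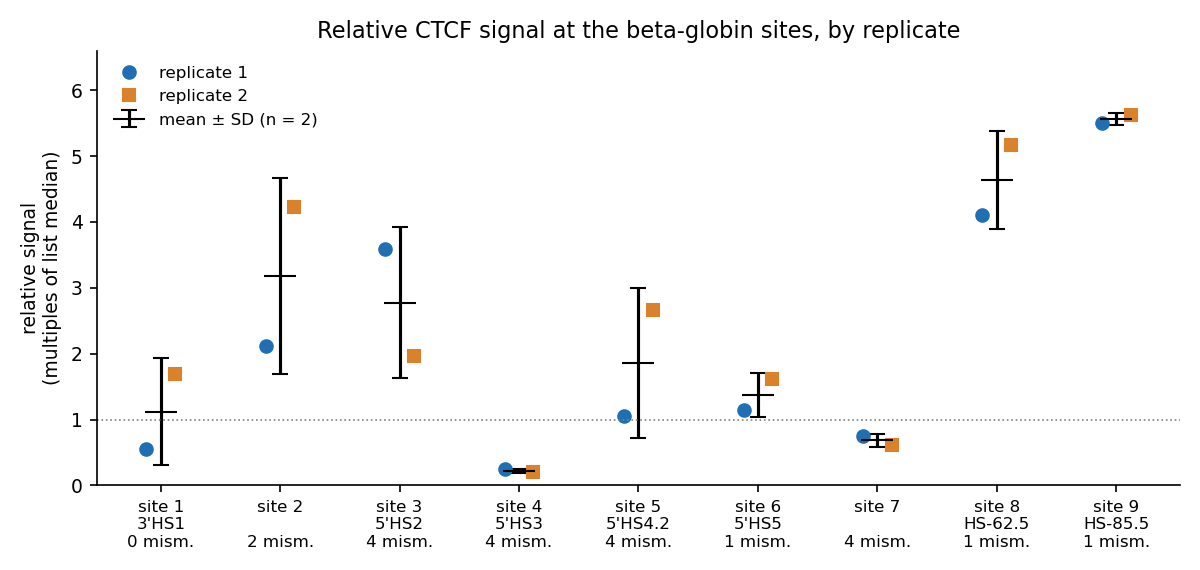
Relative signal (multiples of the list median) of each site in replicate 1 and replicate 2, with the mean and SD (n = 2); the dotted line is the list median, and mism. gives the mismatches of the best motif match. Sites 8 and 9 lie above 4 in both replicates, site 4 below 0.25 in both, and site 1 on opposite sides of the median.

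The sites were largely recovered across lists. Of the 9, 8 were in the conservative list, the shorter of the lists set by IDR, against 86.4% of all placed optimal peaks, and 9 had a summit within 100 bp in both replicate lists, against 93.5%. Both shares are close to those of all peaks. Among the strongest 50909 peaks of each replicate, the window held 10 in each, of which 8 were the sites other than site 4. The other 2 in replicate 1 had relative signals of 0.367 and 0.377, the first inside Olfr66 and the second beside HS-60.7. In replicate 2 they had 0.281, inside 5'HS4, and 0.326, beyond 5'HS5.

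Relative signal was higher in replicate 1 at 3 of the 9, sites 3, 4 and 7, none of which held a core motif. It was higher in replicate 2 at 6, the 5 with a motif and site 5. Of all optimal peaks found in both replicates, 63.6% were higher in replicate 1, and the share was 60.2% with a motif and 72.8% without one. The log2 of replicate 1 over replicate 2 was -1.63 at site 1, below all but 3.99% of optimal peaks, and -1.34 at site 5. At site 2 it was -0.995 and at site 3 it was 0.87, where 83.5% of optimal peaks were lower. Sites 4 and 7, at 0.30 and 0.29, lay at the middle of all optimal peaks, whose median was 0.30. The range between the 5th and 95th percentiles was -1.50 to 1.43, so that site 1 alone fell outside it. With 2 libraries from 1 biosample, a cause for these differences was not tested.

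**Figure D3:**
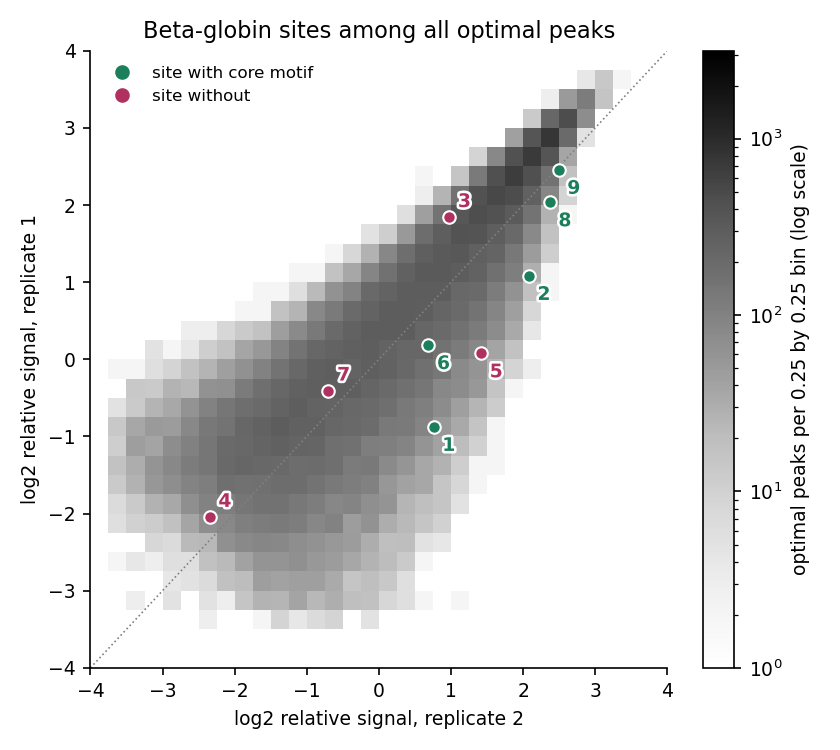
Log2 relative signal in replicate 1 against replicate 2; grey squares count the 47590 optimal peaks found in both replicates (log scale), and numbered points are the 9 beta-globin sites with (green) and without (red) a core motif. The dotted line marks equal values: sites 3, 4 and 7 lie above it, and the 5 sites with a motif and site 5 lie below or on it.

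None of the 5 globin genes had an optimal summit within 1 kb of its start, 0 of 5, against 35.2% of 21938 protein-coding genes. The adult gene Hbb-bt (chr7:103812524-103813996) had its nearest optimal summit 6916 bp downstream, at site 2, and so did Hbb-bs (chr7:103826534-103828096), at 21016 bp. For Hbb-bh2 (chr7:103839124-103840520), Hbb-bh1 (chr7:103841637-103843164) and Hbb-y (chr7:103851749-103853216) the nearest was site 3 in 5'HS2. It lay 20643 bp, 17999 bp and 7947 bp upstream of their starts, in that order. The adult genes were thus nearest to a site with a motif on the 3' side, and Hbb-bh2 and the embryonic genes nearest to the 5'HS2 site without one. Because all 5 genes lie between these neighbouring sites, which of them is nearest follows from the order of the genes. Of the 13 olfactory receptor genes in the window, 1, Olfr64, had an optimal summit within 1 kb of a start. Across the genome 0.969% of 1135 such genes did.

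The long lists, which hold 300000 peaks each for either replicate and for both pooled, with no IDR threshold, do have peaks at the globin genes. They are weak. At Hbb-bs, whose product is a major adult beta-globin chain, replicate 1 had a summit 204 bp and replicate 2 a summit 101 bp downstream of the start, with relative signals of 0.324 and 0.140. The pooled list had one at 101 bp, with a signal of 11.6 and rank 73727. Hbb-bt had a replicate 1 summit 189 bp downstream and a replicate 2 summit 728 bp upstream, at relative signals of 0.177 and 0.101, so the replicates did not place them together. Hbb-bh2 had one within 1 kb in replicate 1 alone, at 0.123. Hbb-bh1 had one in replicate 2 alone, at 0.165, and so had Hbb-y, at 0.108. Hence 3 of the genes in replicate 1, 4 in replicate 2 and 2 in the pooled list had a summit within 1 kb. The share of all protein-coding genes with such a summit was not counted for the long lists. These counts are therefore not read as particular to the globin genes.

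The interval between sites 2 and 3 held 10 peaks of the pooled list, 10 of replicate 1 and 12 of replicate 2. Pooled signals there ran from 5.19 to 11.6, below that of site 4, the weakest site. Relative signals ran from 0.101 to 0.324 in replicate 1 and from 0.0832 to 0.216 in replicate 2, so the highest exceeded site 4 in each replicate. Of these peaks, 1 was shared between the replicates within 100 bp, the one in 5'HS1 of the LCR, and 0 held a core motif. At Hbb-bs the summits, chr7:103827892 in replicate 1 and chr7:103827995 in replicate 2, lay just past that limit, and the peak intervals overlapped. Other limits were not run for this count. Away from the 9 sites in the whole window, 1 peak in each list held a motif, of 25 pooled, 21 replicate 1 and 32 replicate 2 peaks. It was the same peak in the pooled and replicate 1 lists and a different one in replicate 2. The share over all weak peaks was not counted. In the whole window the long lists held 34 pooled peaks, 30 of replicate 1 and 41 of replicate 2. Of these, 11 were shared between the replicates within 100 bp, which is 36.7% of replicate 1 and 26.8% of replicate 2, against 25.8% of each replicate's long list over the whole genome. The shared peaks were those at the 9 sites and 2 others, out of 21 peaks of replicate 1 and 32 of replicate 2 away from the sites.

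**Figure D4:**
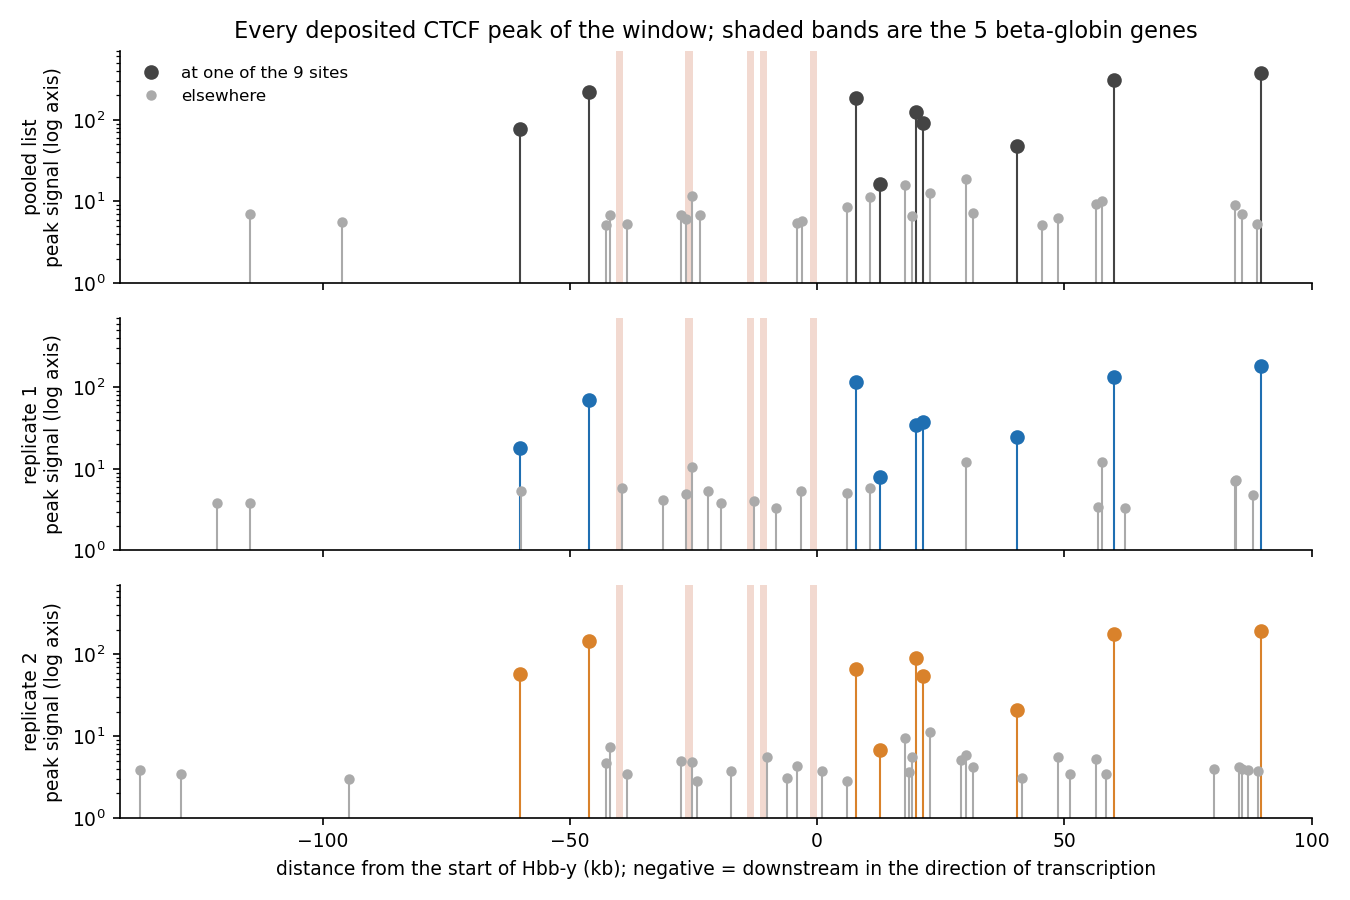
Signal (log axis, each list on its own scale) of every peak in the pooled, replicate 1 and replicate 2 lists across the window, against distance from the start of Hbb-y in kb. Coloured points are peaks at the 9 sites and grey points are the other 25, 21 and 32 peaks. Those between sites 2 and 3 reach 11.6 in the pooled list, 10.6 in replicate 1 and 7.38 in replicate 2.

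A pooled peak inside Olfr66, at chr7:103883129-103883444, had a signal of 18.7, above that of site 4, and was not in the optimal list. It was found in both replicates, at rank 47088 in replicate 1 and rank 70518 in replicate 2. A core motif with 2 mismatches lay near its pooled and replicate 1 summits. The best match near its replicate 2 summit had 4 mismatches. Site 4 had pooled rank 56421, and the peak in Olfr66 had rank 51707. The optimal list therefore does not follow pooled signal alone at its weak end.

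Of the 16 hypersensitive sites annotated in the window, 7 held an optimal summit, 6 a conservative one and 10 a pooled one. Replicate 1 had a summit in 9 and replicate 2 in 12. The share over other annotated hypersensitive sites was not counted, so these counts stand without a baseline. The 9 without an optimal summit include 3 with a pooled summit, 5'HS1, 5'HS4 and HS-84.5, at signals of 8.44, 16.05 and 5.36. 5'HS1, the LCR element nearest to Hbb-y, had a peak in both replicates, at relative signals of 0.154 in replicate 1 and 0.0832 in replicate 2. 5'HS4 had one in replicate 2 alone, at 0.281. HS-3'beta2, HS-3'beta1 and 5'HS6 had no summit in any list. The LCR as a whole held 4 optimal and 9 pooled peaks, with 6 in replicate 1 and 9 in replicate 2.

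Motif matches were far more numerous than sites. With at most 2 mismatches the window held 30 matches, of which 5, or 16.7%, lay at an optimal summit, against 7.62% of 34983 on chromosome 7. With at most 1 mismatch it held 5, of which 4, or 80.0%, lay at a summit, against 31.3% of 4389. These are descriptions of few matches and were not tested. The interval between sites 2 and 3 held 8 matches with at most 2 mismatches. Bounded by neighbouring optimal summits, it can hold none itself. The match with 1 mismatch among them, between Hbb-bt and Hbb-bs, is shown beside the occupied ones because it differs from the motif no more than sites 6, 8 and 9 do:
Unoccupied match, minus strand, chr7:103819325-103819378: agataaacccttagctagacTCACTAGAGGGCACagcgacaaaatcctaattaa

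No peak of any list lay near it. The nearest summit was 4669.5 bp away in the pooled list, 2625.5 bp in replicate 1 and 4627.5 bp in replicate 2.

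Promoter sequences from the RefSeq table, 250 bases before to 50 after each start, matched 4 of the 5 genes. The best match to the core motif had 2 mismatches at Hbb-bs, 3 at Hbb-bt, 3 at Hbb-bh2 and 4 at Hbb-y. Of the 32851 promoters in the table, 14.4% held a match with at most 2.

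The spacing of the sites was uneven. The longest gap, 54.083 kb from site 2 to site 3, held all the genes, and 18.7% of spacings genome-wide were at least as long. The median spacing was 16.5 kb in the window and 14.8 kb over all 50868 spacings. Beyond the window the next optimal summit lay 330 bp below its lower end, 80.887 kb from site 1. It had a signal of 176, a motif with 1 mismatch, and relative signals of 2.53 in replicate 1 and 2.66 in replicate 2, which exceed those of 3'HS1. On the upper side the next was 257.084 kb from site 9, with a signal of 318.

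Optimal peaks were denser around the beta-globin genes than along their neighbourhood. The window had 37.4 peaks per Mb, against 4 per Mb in the 1 Mb below it, 8 per Mb in the 1 Mb above it and 23.8 per Mb over chromosome 7. The excess over the chromosome depended on the flank. A 50 kb flank held 7 peaks and a 200 kb flank 10, so that the wider window was no denser than the chromosome. Among the strongest 50909 peaks of each replicate, the count in the window was 10 ± 0 (SD, n = 2), against 3.5 ± 0.707 in the 1 Mb below and 8 ± 1.41 in the 1 Mb above. A core motif was found at 5 of 9 sites in the window, at 4 of 4 below, at 7 of 8 above and at 69.8% over the chromosome. These counts were not tested.

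The alpha-globin cluster on chromosome 11, which encodes the partner chains of haemoglobin, was counted with the same margins, over chr11:32176400-32400873. The beta-globin window had 9 optimal peaks, 5 with a core motif, at a median signal of 125, and the alpha-globin window had 23, 14 with a motif, at a median signal of 201. Of strongest peaks, the one at HS-85.5 had a mean relative signal of 5.57 ± 0.0887 and the one in the alpha-globin window 8.54 ± 2.13 (SD, n = 2). Among the strongest 50909 peaks of each replicate, 10 ± 0 lay in the beta-globin window and 22 ± 1.41 in the alpha-globin window. At the genes, 0 of 5 beta-globin starts had an optimal summit within 1 kb, and 2 of 5 alpha-globin starts had one, those of the theta-like genes Hbq1b and Hbq1a, at 2 bp and 4 bp. The adult alpha genes Hba-a1 and Hba-a2 had their nearest summits at 2558 bp and 3584 bp. The windows also differ in genes, with 23 gene starts in the beta-globin window and 12 in the alpha-globin window. These counts describe 2 regions and do not test a difference between them.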

How the data were processed

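The data are narrowPeak lists from the 2 libraries on mouse build mm10, per the file headers and labels. There is 1 per replicate, 1 pooled, and a conservative and an optimal list set by the irreproducible discovery rate (IDR). IDR keeps peaks whose ranks recur between the lists compared. Of placed optimal peaks, 93.5% had a summit within 100 bp in both replicate lists, so not all were matched in both. The signal of a peak is the authors' deposited value, on a scale that is not stated. Between the replicates it was compared only as relative signal, after division by the median, or as an alternative the mean, of each replicate's strongest peaks. The aligner, the peak caller and their versions are not given in the sources used here, and read depth is unknown, so no counting intervals are given. Peaks at unplaced sequences (21 of the optimal list) stayed out of the motif and overlap shares.

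Summits were taken as peak start plus offset, and peaks of different lists were matched when summits lay within 100 bp. Genes are from GENCODE vM21. Hypersensitive sites, CTCF sites, promoters and sequences are from RefSeq on GRCm38.p6, whose chromosome 7 is that of mm10. Scripts ran in Python 3.11.15 with numpy 2.4.6, pandas 2.3.3, pysam 0.24.0 and matplotlib 3.10.9, and were tested on simulated peaks and motifs. The globin genes, the window and the alpha-globin comparison were chosen with earlier results of these data known. All 9 sites and 5 genes are named, and all values are descriptive, with no test.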

Additional observations from a re-analysis of the deposited data

How the results depend on the processing

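The counts of sites, of sites with a motif, of sites in the conservative list and in both replicates, and of hypersensitive sites with a summit stayed within 1.5 times the reported count under each alternative run. The window held 9 sites as reported, 8 in the conservative list, 7 with a 50 kb flank or above the median signal, 10 with a 200 kb flank, and 10 in each replicate's strongest peaks. Sites with a motif numbered 4 at 1 mismatch or within 25 bp of the summit, and 5 or 6 otherwise. The alternatives for hypersensitive sites, chosen after seeing the data, gave 6 or 7. Dividing by the mean signal in place of the median multiplied relative signals by 0.569 on average. The difference of site 9 over site 8 then fell within the SD of site 8, although site 9 stayed above site 8 in each replicate. With the pooled list the nearest summits to Hbb-bt and Hbb-bs lay at 686 bp and 101 bp, and those to Hbb-bh2, Hbb-bh1 and Hbb-y at 8701 bp, 6057 bp and 3145 bp, weak peaks inside the cluster in place of 5'HS2. No comparison between conditions, paired or not, was possible because there is 1 group. The SDs were taken site by site, without pairing the sites within a replicate. Unknown depth and 1 biosample limit what a missing or weak peak means.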
